A study of Mus musculus with 7 samples.

Results

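The genes described here encode 10 secreted proteins of blood vessel growth and fibroblast signalling: Vegfa, Vegfb, Vegfc, Figf, Pgf, Fgf2, Fgf7, Hgf, Angptl4 and Thbs1. They were chosen by symbol, and all 10 had an entry among the 23583 gene entries shared by the untreated and the thapsigargin RNA tables. The cells were primary dermal fibroblasts of female FVB/N mice, grown for 8 days in culture and then left untreated or given thapsigargin for 3 h. Thapsigargin inhibits the pump that loads calcium into the endoplasmic reticulum (ER), which stresses that organelle and raises the transcription factor ATF4. There were 7 libraries. RNA sequencing and chromatin immunoprecipitation (ChIP) of CEBPB had 1 library per condition, ATF4 was immunoprecipitated after thapsigargin only, in 1 library, and DNA methylation was measured in 2 bisulfite libraries without thapsigargin, which the authors pooled. Every condition of the RNA and ChIP data was thus 1 library of primary cells, so no difference below has a replicate check and no p-value is given. In bulk RNA, fewer cells of a type and less RNA per cell cannot be told apart.

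Vascular endothelial growth factors are secreted ligands that act on receptor tyrosine kinases of endothelial cells, with VEGF-A driving blood vessel growth and VEGF-C and VEGF-D acting mainly on lymphatic vessels. Fibroblasts of the dermis also signal to the epidermis above them, through FGF7, also called keratinocyte growth factor, and through HGF, which binds the receptor MET. Vegfa is known as a gene induced by ER stress and by ATF4. ATF4 binds DNA as a dimer, and its partner can be a C/EBP protein such as CEBPB. The composite site of that pair, TGATGCAA, joins part of an ATF site to part of a C/EBP site, while C/EBP dimers bind TTGCGCAA and related letters.

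The sequences that carry the binding results come first, read from the mm9 genome, 5' to 3', on the strand of the gene. The pair from Vegfa, a gene on the minus strand, is shown because both peaks hold composite or near-composite letters near the centre of an ATF4 peak. Capitals mark TTACATCA, which reads TGATGTAA on the other strand, in the ATF4 peak of the first intron (chr17:46167425-46167673), and TGATGCAA in the ATF4 peak upstream of the gene (chr17:46210930-46211153).

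Vegfa first intron, ATF4 peak: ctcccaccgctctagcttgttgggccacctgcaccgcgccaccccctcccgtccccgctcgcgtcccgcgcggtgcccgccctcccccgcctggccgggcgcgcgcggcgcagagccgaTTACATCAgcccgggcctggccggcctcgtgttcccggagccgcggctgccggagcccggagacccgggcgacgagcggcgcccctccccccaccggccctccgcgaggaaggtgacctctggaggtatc
Vegfa upstream site, ATF4 peak: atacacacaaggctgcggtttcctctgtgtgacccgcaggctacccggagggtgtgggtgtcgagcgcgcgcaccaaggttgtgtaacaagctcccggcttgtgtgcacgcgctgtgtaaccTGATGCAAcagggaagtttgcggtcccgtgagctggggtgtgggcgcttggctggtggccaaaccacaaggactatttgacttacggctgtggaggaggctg

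A peak beyond the far end of Angptl4, inside an intron of Rab11b (chr17:33886450-33886686, CEBPB after thapsigargin, minus strand), is shown because its only CpG lies within TTGCGCAA, in capitals, and was methylated. The CEBPB peak of untreated cells in an intron of Fgf7 (300 bases at its centre, chr2:125886393-125886692, plus strand) is shown for TTGCTTAA, in capitals, 5 bases from its centre.

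Rab11b intron near Angptl4, CEBPB peak: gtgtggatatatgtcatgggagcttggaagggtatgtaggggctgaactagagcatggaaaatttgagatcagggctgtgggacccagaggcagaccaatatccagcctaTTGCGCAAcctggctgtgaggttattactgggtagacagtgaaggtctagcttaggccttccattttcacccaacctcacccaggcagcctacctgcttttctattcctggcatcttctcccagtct
Fgf7 intron, CEBPB peak: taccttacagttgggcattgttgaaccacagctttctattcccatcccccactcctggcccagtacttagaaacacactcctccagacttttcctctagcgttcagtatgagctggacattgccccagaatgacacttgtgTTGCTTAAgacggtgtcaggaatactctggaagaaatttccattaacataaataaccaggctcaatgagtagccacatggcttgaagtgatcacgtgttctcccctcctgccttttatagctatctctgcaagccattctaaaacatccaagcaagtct

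The 250 bases before the starts of Vegfb (chr19:7062142-7062391, minus strand), Figf (chrX:160811060-160811309, plus strand) and Fgf7 (chr2:125860144-125860393, plus strand) are shown for their contrast in CpG content. For Figf this is the outermost annotated start, which lies upstream of the locus start used for its methylation value below. Every CpG is in capitals. The Vegfb stretch has 26, the Fgf7 stretch 6 and the Figf stretch 2.

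Vegfb upstream: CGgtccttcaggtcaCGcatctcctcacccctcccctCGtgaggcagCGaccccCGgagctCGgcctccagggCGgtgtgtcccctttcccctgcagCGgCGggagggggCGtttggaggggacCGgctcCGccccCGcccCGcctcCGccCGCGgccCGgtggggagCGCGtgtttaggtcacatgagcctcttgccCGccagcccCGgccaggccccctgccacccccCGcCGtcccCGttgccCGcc
Fgf7 upstream: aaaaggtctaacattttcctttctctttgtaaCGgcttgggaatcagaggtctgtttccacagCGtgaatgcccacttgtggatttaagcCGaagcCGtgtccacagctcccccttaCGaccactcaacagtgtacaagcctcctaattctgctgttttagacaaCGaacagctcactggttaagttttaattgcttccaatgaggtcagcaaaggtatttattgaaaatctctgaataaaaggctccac
Figf upstream: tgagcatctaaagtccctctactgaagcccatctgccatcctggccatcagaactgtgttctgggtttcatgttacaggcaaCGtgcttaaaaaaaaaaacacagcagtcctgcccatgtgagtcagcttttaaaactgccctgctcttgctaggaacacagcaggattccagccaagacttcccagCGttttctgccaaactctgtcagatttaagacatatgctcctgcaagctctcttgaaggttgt

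Thapsigargin was followed by higher RNA of Vegfa and Fgf7 and lower RNA of Hgf, Vegfb, Vegfc and Figf, while Angptl4, Thbs1, Fgf2 and Pgf changed by less than the threshold. Levels are FPKM, that is, fragments per kb of transcript scaled by the authors for library size, with their confidence bounds in parentheses. A gene was expressed if its FPKM reached 1 in either library, and it was called higher or lower if the difference of log2(FPKM + 1), thapsigargin minus untreated, reached 1 in size. All 10 genes were expressed, 2 were called higher and 4 lower. Over all 12207 expressed entries, 6.02% were called higher and 28.2% lower, and the median change was −0.52, against 0.10 for the 10 genes. The rule behind the FPKM scaling is not known here, so a scaling offset and a general fall in RNA cannot be told apart. Ratios carry a 95% interval that covers counting error only, from the fragments that the bounds imply.

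Within the tables a gene's change also went with its number of exon junctions per kb of transcript, so a junction-adjusted change is given too: the log2 change less the median change among genes with similar junction density. After that adjustment the same 2 genes were higher and 0 of the 10 were lower, against 12.4% and 10.5% of 11748 entries. With changes centred on the median of all entries the same rule called 13.3% of entries higher and 12.9% lower. Centred in that way, Vegfb and Hgf kept a lower call, at −1.23 and −1.43, and Vegfc and Figf did not. The cause of the relation with junctions was not tested.

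**Figure D1:**
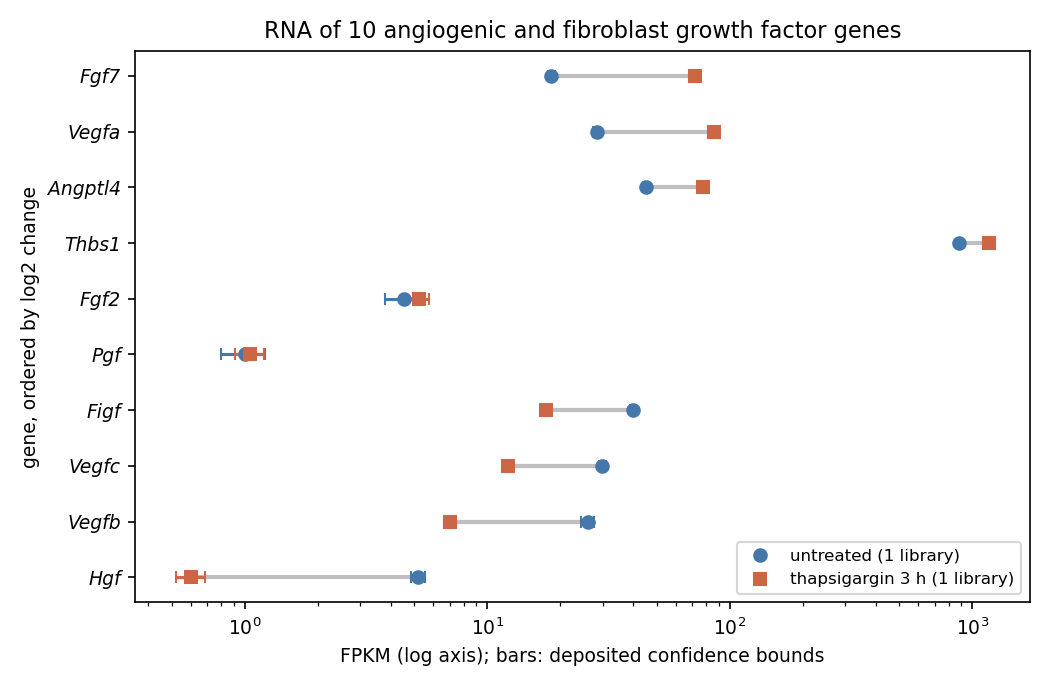
FPKM of the 10 genes on a log axis in the untreated library (circles) and the thapsigargin library (squares), with the authors' confidence bounds as bars where these are wider than the symbols, ordered by log2 change. Fgf7 and Vegfa have the widest gaps to the right, Hgf has the widest gap to the left, and the bounds of Fgf2 and of Pgf overlap between libraries.

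Among the VEGF ligands, Vegfa (chr17:46153943-46169326), the main growth signal for blood vessels, stood at 28.3 (27.4 to 29.2) in untreated cells and 86.4 (85.2 to 87.5) after thapsigargin. The bounds did not overlap, and the level after thapsigargin was 3.06 times the untreated one (2.96 to 3.16). Its log2 change of 1.58 lay at percentile 97.4 of the expressed entries, and the junction-adjusted change was 2.21. The values rest on about 3960 and 23436 fragments.

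The other endothelial ligands of the family did not share that direction. Vegfb (chr19:7056962-7062141), whose product binds the receptor made by Flt1, stood at 26.0 (24.4 to 27.6) in untreated cells and 7.04 (6.62 to 7.47) after thapsigargin, 3.70 times lower (3.40 to 4.02). Its log2 change of −1.75 became −0.96 after junction adjustment. Vegfc (chr8:55162886-55271808), a lymphatic growth factor, stood at 29.8 (28.8 to 30.9) and 12.2 (11.7 to 12.6), 2.45 times lower (2.33 to 2.57), with changes of −1.23 and, junction-adjusted, −0.83. Figf (chrX:160811480-160840579), which encodes VEGF-D, stood at 39.9 (38.8 to 41.1) and 17.4 (16.9 to 17.9), 2.30 times lower (2.20 to 2.39), with changes of −1.15 and, junction-adjusted, −0.74. In all 3 genes the 2 libraries' bounds stood apart. The bounds imply about 1080 and 1086 fragments for Vegfb, 3493 and 2971 for Vegfc, and 4661 and 4229 for Figf. Vegfb thus had the largest fall in FPKM of the 3 but no fall in implied fragments. In Vegfc and Figf too, the fragments fell by less than the FPKM. These counts are not scaled for library size, and the implied totals were 53913511 untreated and 78945813 after thapsigargin. The cause of the mismatch at Vegfb was not tested, and the ratio interval of Vegfb does not cover it. The log2 changes of the 3 genes lay at percentiles 9.14, 20.3 and 22.5 of the expressed entries. Over 20% of entries thus had a change as low as that of Vegfc or Figf, or lower.

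Pgf (chr12:86507591-86518235), placental growth factor, was close to the limit for expression, at 1.01 (0.80 to 1.21) untreated and 1.05 (0.91 to 1.20) after thapsigargin. The ratio of 1.05 had an interval of 0.82 to 1.33, so no difference was detectable at this depth of about 96 and 210 fragments. In untreated cells Vegfc, Vegfa and Vegfb held neighbouring places with overlapping bounds, below Figf. After thapsigargin Vegfa stood above Figf, Vegfc, Vegfb and Pgf in that order, and no neighbours among the 10 genes had overlapping bounds.

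Of the fibroblast growth factors, Fgf7 (chr2:125860394-125916921) had the highest change of the 10 genes. It stood at 18.4 (17.7 to 19.1) untreated and 72.0 (71.1 to 72.9) after thapsigargin, 3.91 times higher (3.77 to 4.06). The log2 change of 1.91 lay at percentile 98.2, and with 0.999 junctions per kb its junction-adjusted change was close to it, at 2.03. Fgf2 (chr3:37247575-37303752), basic fibroblast growth factor, stood at 4.52 (3.80 to 5.24) and 5.21 (4.68 to 5.74), a ratio of 1.15 (0.96 to 1.39) whose interval holds no change. The Fgf2 value is uncertain for another reason: 13.4% of its exon bases overlap exons of Nudt6 on the other strand, and the library kit is not stated to keep strand.

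Hgf (chr5:16059368-16125257), the ligand of MET, stood at 5.18 (4.84 to 5.52) untreated and 0.602 (0.521 to 0.683) after thapsigargin. That was 8.60 times lower (7.43 to 9.95), and Hgf moved from the eighth place among the 10 genes to the lowest. Its log2 change was −1.95, at percentile 6.59. Hgf also had the most junctions of the 10 genes, 6.53 per kb, and genes of like density had a median change of −1.09, which leaves −0.86 after adjustment.

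Angptl4 and Thbs1 were the most abundant of the 10 in untreated cells. Angptl4 (chr17:33911845-33918520), a secreted inhibitor of lipoprotein lipase that also acts on vessels, stood at 45.2 (44.0 to 46.4) and 77.7 (76.6 to 78.8), 1.72 times higher (1.67 to 1.77). Its log2 change of 0.77, at percentile 91.5, missed the threshold, and so did the junction-adjusted 0.93. After subtraction of the all-entry median it was 1.29, which passes it. Thbs1 (chr2:117937658-117952869), thrombospondin 1, a matrix glycoprotein that restrains vessel growth, stood at 879.9 (876.9 to 882.9) and 1171 (1169 to 1174), 1.33 times higher (1.33 to 1.34). Its bounds stood clearly apart, yet its log2 change was 0.41, or 0.88 junction-adjusted.

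**Figure D2:**
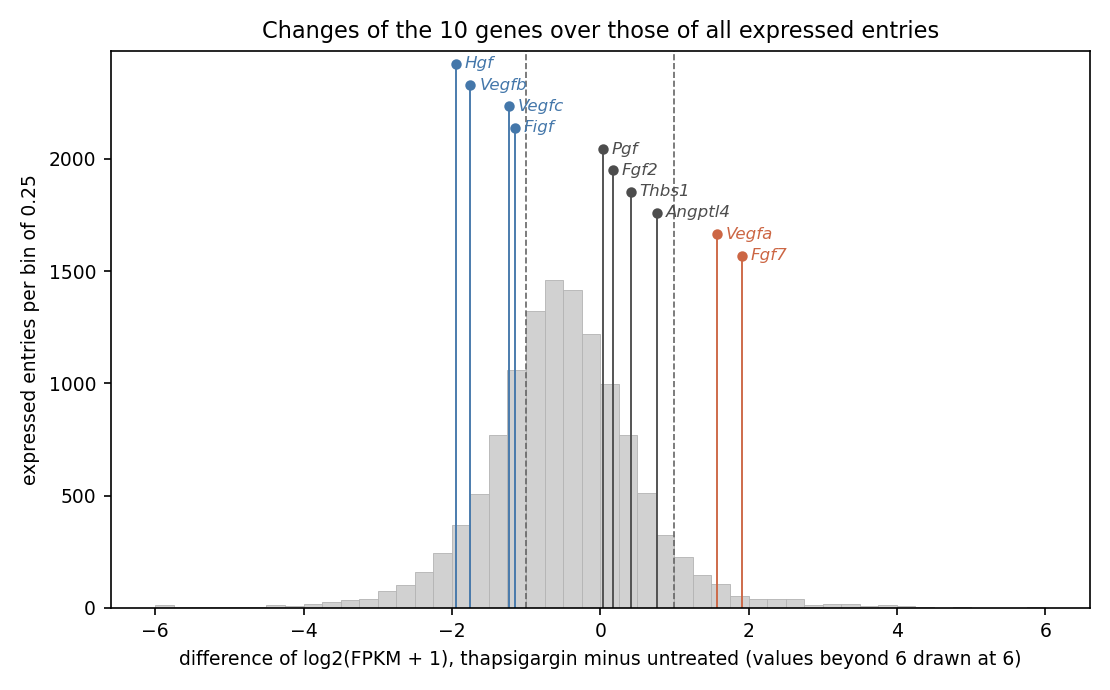
Number of expressed entries per bin of 0.25 in log2 change (grey), with the 10 genes drawn as stems at their own change and the thresholds of 1 and −1 as dashed lines. Stem height only spaces the names. Most entries lie below 0, and Vegfa and Fgf7 sit in the thin upper tail.

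The labelled cell type was checked against markers. The 8 fibroblast markers were all expressed, with a summed FPKM of 15880 untreated and 4048 after thapsigargin, and Col1a1, a chain of type I collagen, fell from 6473 to 884. Of these 8 markers 5 were called lower, and 3 were lower after junction adjustment. Those not called were Dcn at 502.4 and 259.7, Vim at 1533 and 1223, and Thy1 at 131.6 and 168.2. Markers of other cell types were also present in the RNA. Macrophage and leukocyte markers (8 of 8 expressed, 1 higher, 1 lower) summed to 1168 and 1200, mostly Lyz2 at 879.7 and 951. The sum hides opposite changes within the list, since Cd14 rose from 14.8 to 111.4 and Cd74 fell from 142.8 to 5.61. Keratinocyte markers (7 of 7 expressed, 5 lower) summed to 25.1 and 2.42, with Krt17 at 7.17 and 0.330. Endothelial markers (2 of 7 expressed, 1 lower) summed to 24.4 and 11.3, mostly Eng at 18.3 and 9.31. Erg fell from 3.55 to 0.934, a log2 change of −1.23, or −0.66 junction-adjusted. Emcn, not expressed by the rule used here, was listed at 0.227 untreated and 0 after thapsigargin. Muscle and pericyte markers (5 of 6 expressed, 2 lower, 1 higher) summed to 1201 and 530.05, with Acta2 at 1124 and 475, while Cspg4 rose from 5.82 to 17.4. Adipocyte markers (3 of 5 expressed, 1 lower) summed to 17.3 and 9.03, with Fabp4 at 12.8 and 1.49. The other expressed adipocyte markers were not lower, with Pparg at 2.24 and 4.75 and Lipe at 2.14 and 2.76, and the list median was 0.26. Whether these other cell types were in the culture, and what part they had in the growth factor values, was not tested.

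The receptors, relatives and regulators of the 10 genes were followed in 9 lists. Of 110 listed genes 78 were expressed, of which 7 were higher and 24 lower, or 8.97% and 30.8%, beside 6.02% and 28.2% of all expressed entries. After junction adjustment 13 of the 78 were higher and 18 lower, while 12.4% and 10.5% of all 11748 adjusted entries were.

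**Figure D3:**
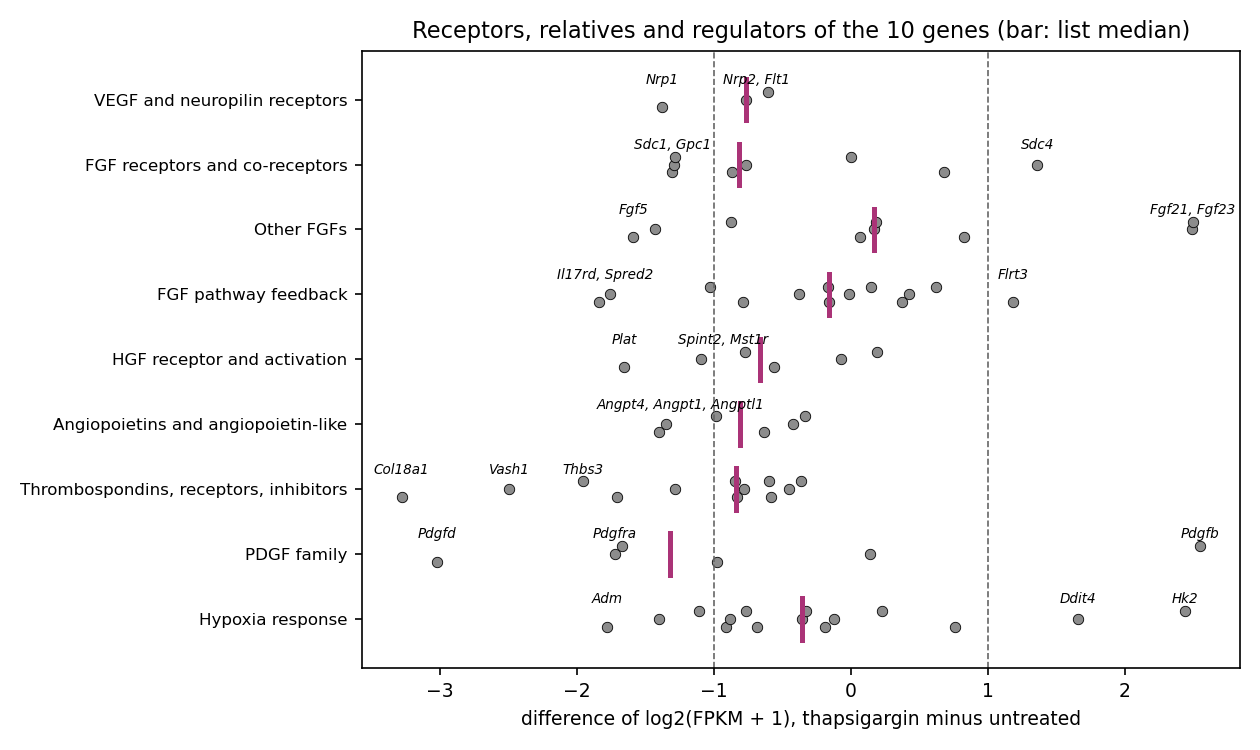
Difference of log2(FPKM + 1), thapsigargin minus untreated, of each expressed gene of the 9 lists, with names for the genes of largest change, the list median as a bar and the thresholds as dashed lines. Fgf21, Fgf23, Pdgfb and Hk2 stand alone on the far right, and Col18a1 and Pdgfd on the far left.

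Receptors for the VEGF ligands were expressed in 3 of 5 cases, with 0 higher, 1 lower and a median of −0.77. Nrp1, a co-receptor for VEGF-A, fell from 31.7 to 11.6, a log2 change of −1.37. Nrp2 stood at 25.7 and 14.7, and Flt1 at 5.88 and 3.53, both short of the threshold. Angiopoietins and their relatives (6 of 10 expressed) had 0 higher, 2 lower and a median of −0.81. Angpt1, the ligand of the receptor TIE2, fell from 3.26 to 0.678, Angpt4 fell from 2.56 to 0.346, and Angptl1 stood at 19.1 and 9.19.

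FGF receptors and co-receptors (8 of 12 expressed) had 1 higher, 3 lower and a median of −0.82. The proteoglycan genes differed in direction: Sdc4 rose from 35.3 to 92.1, while Sdc1 fell from 55.6 to 21.9 and Gpc1 from 79.4 to 31.9. Other FGF ligands (9 of 20 expressed) had 2 higher, 2 lower and a median of 0.17. Both genes called higher encode FGFs that act as hormones. Fgf21, a known ATF4 target, rose from 10.7 to 65.0 and Fgf23, which acts on phosphate handling in the kidney, from 0.294 to 6.29, with log2 changes of 2.49 each. Fgf5, which limits hair growth, fell from 4.27 to 0.755. Feedback genes of the pathway (13 of 16 expressed) had 1 higher, 3 lower and a median of −0.16, with Il17rd at 5.12 and 0.714, Spred2 at 12.3 and 2.94, and Flrt3 at 3.77 and 9.84.

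The list for the HGF receptor and HGF activation (6 of 11 expressed) had 0 higher, 2 lower and a median of −0.66. Plat, tissue plasminogen activator, fell from 53.3 to 16.3, and Spint2, an inhibitor of HGF activator, from 7.69 to 3.08. After junction adjustment those changes were −0.90 and −0.46, short of the threshold. Mst1r, a receptor gene related to Met, stood at 1.43 and 0.428.

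Thrombospondins, their receptors and related inhibitors of vessel growth (12 of 14 expressed) had 0 higher, 5 lower and a median of −0.84. Col18a1, whose product releases endostatin, fell from 114.0 to 10.9, a log2 change of −3.28, or −2.21 junction-adjusted. Vash1, which encodes vasohibin 1, fell from 9.06 to 0.789. Thbs3 fell from 20.2 to 4.47, with a junction-adjusted change of −0.90. After junction adjustment 3 genes of the list were lower, Col18a1 and Vash1 among them, and the list median was −0.07.

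The PDGF family (6 of 6 expressed) had 1 higher, 3 lower and a median of −1.32. The lower call of Pdgfrb rests on an estimate that the authors' table marks as failed after thapsigargin. Pdgfb rose from 1.39 to 12.9, while Pdgfd fell from 13.4 to 0.773 and the receptor gene Pdgfra from 146.7 to 43.7. Genes of the hypoxia response, of which Vegfa is a textbook target, did not move together: of 15 expressed members 2 were higher and 3 lower, with a median of −0.36. After junction adjustment 4 were higher and 1 lower, with a median of −0.01, so the balance of calls depended on that choice. Hk2, hexokinase 2, rose from 2.86 to 19.9 and Ddit4 from 22.4 to 73.0, and Adm, adrenomedullin, fell from 43.5 to 11.97.

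Binding of CEBPB and ATF4 near the genes was read from the authors' 3 peak lists, as any peak within 50 kb of a locus. In untreated cells all 10 genes had a CEBPB peak, against 44.1% of 11999 expressed loci, 16 peaks in all. After thapsigargin 5 of the 10 had a CEBPB peak, against 43.5%, and 6 had an ATF4 peak, against 81.1%. An ATF4 peak within 2 kb of the gene start, a distance chosen after the data were seen, was present at 3 of the 10 genes and at 49.1% of the loci. Peak scores are the authors' own and serve only to rank peaks within a list. The lists have different lengths, so a peak missing from 1 list does not show that binding was lost.

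**Figure D4:**
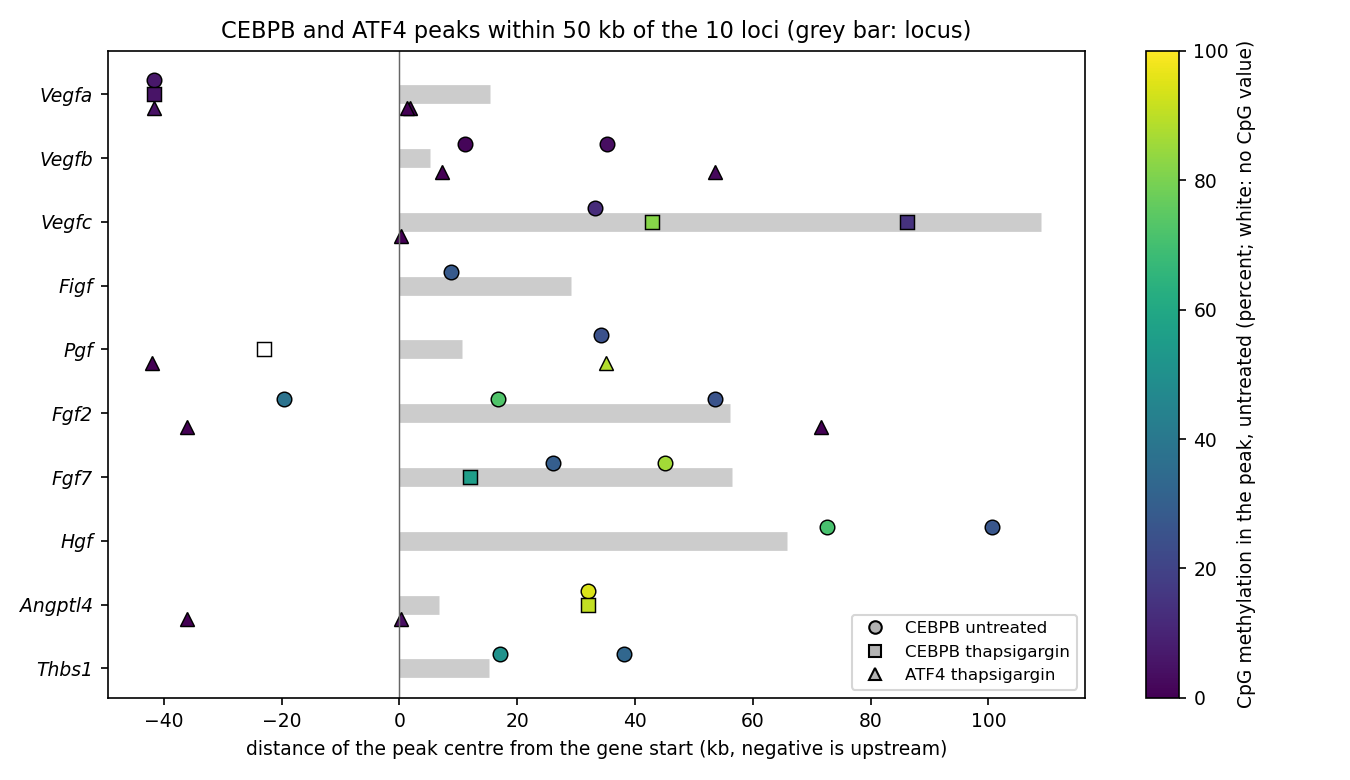
Position of every CEBPB and ATF4 peak within 50 kb of the 10 loci, as distance of the peak centre from the gene start in kb, with grey bars for the loci and colour for the CpG methylation of untreated cells inside the peak. Only Vegfa has peaks of all 3 lists stacked at the same place, upstream of the gene, and Hgf, Thbs1 and Figf have CEBPB peaks of untreated cells alone.

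Vegfa had 2 sites of interest. The ATF4 peak in its first intron, centred 1777 bases after the start, ranked 660 of 10109 in its list. The letters TGATGTAA lie 1 base from its centre. The pattern TGATGNAA, added after the data were seen, occurred on either strand in 1.72% of the 300-base windows at ATF4 peak centres. A second ATF4 peak of the intron (chr17:46167903-46168301) ranked 6720. The other site lay upstream at −41702 bases from the start, between genes, with the start of Mrps18a nearer than that of Vegfa. There all 3 lists had a peak: CEBPB untreated (chr17:46210751-46211202, rank 1993 of 7317), CEBPB after thapsigargin (chr17:46210901-46211131, rank 363 of 7861) and ATF4 (rank 4682). TGATGCAA lay 11 and 14 bases from the centres of the last 2, and it occurred in 8.09% and 0.703% of the windows of these lists. Of all ATF4 peaks 103, or 1.02%, overlapped peaks of both CEBPB lists, and 2.14% of expressed loci had such a site within 50 kb. Vegfa was the single gene of the 10 that did.

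Fgf7, the other gene called higher, had no ATF4 peak within 50 kb. Within 100 kb it did have an ATF4 peak, as did 89.4% of expressed loci. Its CEBPB peaks were all inside its introns. Those of untreated cells (chr2:125886369-125886716, rank 1763, and chr2:125905370-125905752, rank 6720) and that of treated cells (chr2:125872333-125872487, rank 5649) did not overlap. TTGCTTAA in the first of these matches TTGCNNAA, a C/EBP pattern with free middle bases that was added after the data were seen. That pattern was frequent, present in 64.3% of CEBPB windows of untreated cells, 23.9% of those of treated cells, 3.66% of ATF4 windows and 7.54% of gene-start windows. Near the 10 genes it was present at 10 of 16, 3 of 6 and 0 of 12 peaks of the 3 lists.

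Angptl4 had an ATF4 peak in its coding sequence just after the start (chr17:33918086-33918330, rank 2512) and a further one upstream, in a coding exon of Kank3 (chr17:33954305-33954886, rank 2438). A CEBPB site 31947 bases after its start, within Rab11b, was in both CEBPB lists, as chr17:33886252-33886838 in untreated cells (rank 921) and as rank 258 after thapsigargin. TTGCGCAA stands 4 bases from the centre of the latter, and it occurred in 4.1% and 2.38% of the windows of the CEBPB lists. Vegfc also had an ATF4 peak in its coding sequence near the start (chr8:55163128-55163324), but that peak ranked 8546. Its introns held a CEBPB peak of untreated cells (chr8:55195957-55196282) and 2 of treated cells, of which chr8:55248995-55249205 ranked 626.

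At Vegfb, Fgf2 and Pgf the ATF4 peaks lay at or beside the starts of other genes, or in their introns. Those near Vegfb stood at Fkbp2 (chr19:7054766-7055046, rank 1382), 24 bases from an annotated start, and at Kcnk4 (chr19:7008266-7008764). Near Fgf2, 1 ATF4 peak (chr3:37211230-37211641) lay 40 bases from the start of Bbs12 and 5 bases from that of a longer annotated Fgf2 transcript. That peak is not in the count within 2 kb of the gene start, which used the locus start of the RNA data. The other ATF4 peak near Fgf2 lay at Nudt6 and Spata5 (chr3:37319039-37319287). Near Pgf, 1 stood 175 bases from the start of Eif2b2 (chr12:86560158-86560354), a gene for a translation initiation factor subunit. Fgf2 had 3 CEBPB peaks in untreated cells, all in introns of annotated Fgf2 transcripts, and the one at chr3:37264069-37264471 ranked 910 and held TTGCACAA.

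Figf, Hgf and Thbs1 had peaks in the CEBPB list of untreated cells alone. Figf had 1 in an intron (chrX:160819908-160820427), Hgf had 2 beyond its far end, the nearer at chr5:16131695-16132132, and Thbs1 had 2 beyond its far end, the nearer at chr2:117954542-117954930. The single CEBPB peak of treated cells near Pgf (chr12:86541112-86541271) held no CpG with a methylation value, while the untreated one lay in Rps6kl1 (chr12:86483842-86484215). Near Vegfb the untreated peaks lay at Ppp1r14b (chr19:7050742-7051118) and by Gpr137 (chr19:7026650-7027215). Of the gene-start windows, which run from 250 bases before to 50 after the start, 1 of 10 held any of the 7 patterns searched on both strands, TTGCGCAA, TGACGTCA, TGACGCAA, TGATGCAA, CGATGCAA, TGATGNAA and TTGCNNAA. That was TTGCNNAA at Vegfc. The patterns TGATGNAA and TTGCNNAA contain TGATGCAA and TTGCGCAA, and no match says only that the letters are not in the window.

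Methylation of untreated cells at the gene starts was low within 500 bp at 8 of the 10 genes and intermediate at the other pair. Values are the mean percent over the CpG cytosines within 500 bp of the start, with the standard error over cytosines, which does not measure variation between cultures. The deposited percents carry no coverage, so the depth behind each cytosine is unknown. Vegfb had 0.0882 ± 0.0448% (170 cytosines), Vegfc 0.225 ± 0.0576% (204), Vegfa 0.409 ± 0.147% (110), Thbs1 0.741 ± 0.315% (85) and Fgf2 0.870 ± 0.174% (154). Angptl4 had 4.88 ± 0.732% (104), Hgf 7.61 ± 2.10% (36) and Pgf 9.13 ± 1.75% (76). Within 1000 bp of the start the mean was 24.7% for Pgf, 20.4% for Hgf and 10.8% for Angptl4, so their low values hold for the narrower window only. Within 500 bp these 8 were below 10%, as were 83.4% of 11969 expressed loci, whose median was 0.771%.

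Fgf7 and Figf stood apart, with 32.7 ± 3.42% over 34 cytosines (from 4 to 100%) and 40.5 ± 4.88% over 14 cytosines (from 12 to 79%). Of the expressed loci 9.44% reached 30%. Figf lies on the X chromosome, and the mice were female. The Figf value thus averages over both X copies, and whether the copies differed in methylation was not tested. Fgf7 and Figf are both expressed, and they moved in opposite directions after thapsigargin. Their starts are poor in CpG, as the printed stretches show, with 17 and 7 CpGs in the window against 85 at Vegfb. The start of Hgf was also poor in CpG, with 18 in the window, yet its value was 7.61%. A relation between CpG content and methylation was not tested. At the far ends of the loci 9 genes had a value, between 67.2% for Thbs1 and 91.7% for Fgf7, beside a median of 80.4% over expressed loci.

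**Figure D5:**
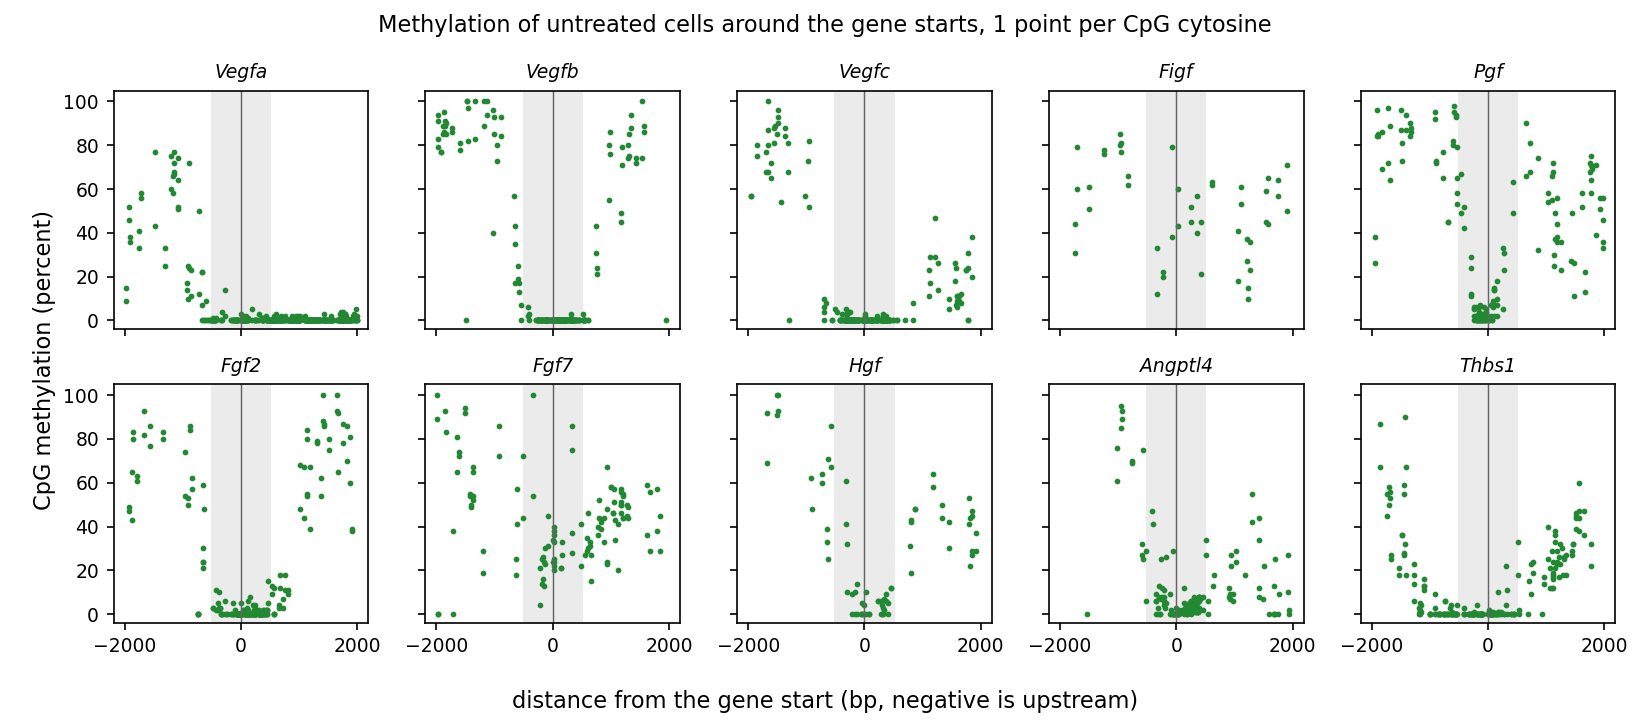
CpG methylation of untreated cells, in percent, against distance from the gene start in bp, 1 point per cytosine, 1 panel per gene, with the window of 500 bp on each side shaded. Most panels show a trough at the start, broad at Vegfa and Thbs1 and narrow at Pgf, while Figf and Fgf7 have scattered intermediate values there.

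Methylation inside the peaks differed with the list, near the 10 genes as over the whole lists. ATF4 peaks near the genes had a median of 0.273% (12 peaks), against 0.172% over all ATF4 peaks. CEBPB peaks of untreated cells had a median of 28.7% (16 peaks, from 1.21 to 94.4%), against 39.0%. Those of treated cells had 55.8% (5 peaks with a CpG value), against 60.3%. All methylation was measured in untreated cells, so what thapsigargin did to it at these peaks is not known from these data. At Vegfa the intron ATF4 peak had 0.329% over 70 cytosines, and the upstream site had 6.30%, 5.16% and 4.54% in the CEBPB untreated, CEBPB thapsigargin and ATF4 intervals. Neither Vegfa motif contains a CpG.

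The Angptl4 site in Rab11b was the contrary case, at 94.4% over 16 cytosines in the peak of untreated cells. Both cytosines of the CpG within its TTGCGCAA were methylated, at 90 and 92%, and both CEBPB lists had a peak over them. The ATF4 peak at the start of Angptl4 had 3.56%. The Fgf7 intron peaks of untreated cells had 29.3% and 86.2%, and that of treated cells 55.8%. At the intron peaks of Vegfc the values were 12.4% in the untreated list and 82.0% and 14.3% in the treated list. The Fgf2 intron peak at chr3:37264069-37264471 had 72.4%. The others in Fgf2 introns had 38.2% (chr3:37227598-37228189) and 25.7% (chr3:37300842-37301339). The Figf intron peak had 28.0% over 58 cytosines.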

How the data were processed

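RNA, chromatin immunoprecipitation and bisulfite data of mouse dermal fibroblasts were taken as deposited. The authors deposited FPKM with confidence bounds, peak lists on mm9 with a score per peak, and percent methylation per CpG cytosine pooled over 2 libraries without coverage. Per the submitters' processing notes, the tools were CASAVA (1.8.2, 1.7 and 1.8), Bowtie, BWA, SAMtools and Novoalign. Not given in the sources used here were the peak caller, its control and the program behind the FPKM.

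From these, differences of log2(FPKM + 1) were computed with Python 3.11.15, and 95% ratio intervals came from the fragments that the bounds imply, taking a bound as 2 standard errors. The implied totals were 53913511 and 78945813 fragments. The count was within 0.05 of a whole number for 73.3% and 80.0% of entries with few fragments. Of the entries 6 untreated and 95 thapsigargin ones had a failed estimate, none of them of the 10 genes, though Pdgfrb, Fgfr1 and Itgam of the lists had one after thapsigargin. Junction density was the mean over coding transcripts of the GENCODE annotation of the same build, with genes that reached FPKM 5 in either library split into 50 bins. With minimap2 2.31-r1302 no 100-base exon window of the 10 genes had a copy elsewhere at 3 or fewer mismatches. The script was tested on simulated data.

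The genes and lists were chosen with earlier results of these data known, and this holds for the members, the marker lists and the pathway lists alike. Of each pathway list the text names up to 3 expressed genes with the largest change, of each marker list the most abundant gene, and peaks within 10 kb or the highest scoring of each list. A gene of the pathway lists is not reported here. Emcn, Erg, Cd14, Cd74, Dcn, Vim, Thy1, Cspg4, Pparg, Lipe, Pdgfrb, other peaks and the free-base motifs were named after their values were seen. Alternatives covered pseudocounts, centring, filters, peak distances and scores, and methylation windows.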

Additional observations from a re-analysis of the deposited data

How the results depend on the processing

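No paired analysis was possible because each RNA and ChIP group held 1 library. Of the 10 genes, 2 were called higher under every pseudocount, filter and the junction adjustment, and 3 with changes centred on the median over all entries expressed or over those at FPKM 5 or more in both libraries, where Angptl4 passed at 1.29 or 1.16. The number called lower, 4 as reported, was 2 under both centrings, 3 with a pseudocount of 5 (Hgf at −0.86) and 0 after junction adjustment. Over all expressed entries these centrings called 12.9% or 15.8% lower and 13.3% or 11% higher. No log2 change turned its direction in 60 settings.

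Genes with a CEBPB peak of untreated cells numbered 6 when peaks below the median score of their list were left out, against 27.8% of expressed loci. Those with a CEBPB peak after thapsigargin numbered 2 within 10 kb, against 22.5%. Genes with an ATF4 peak numbered 3 when low-scoring peaks were left out in the same way, against 60.7%, and 3 within 2 kb of the gene start, against 49.1%. Promoter methylation left its 95% interval over cytosines in 21 of 40 settings, and peak methylation by more than 10 percentage points in 3 of 63. Those were CEBPB peaks of untreated cells that hold few cytosines. The Fgf7 peak at chr2:125886369-125886716 went from 29.3% to 45.4% when widened. The Fgf2 peak at chr3:37227598-37228189 had 38.2% in full and 3.5% in the centre. The Thbs1 peak at chr2:117954542-117954930 had 51% in full and 14.5% in the centre. Depth limits Pgf and Fgf2 most, and the unknown coverage limits every methylation value.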

Other observations

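An ATF4 peak 35112 bases after the start of Pgf, in an intron of Rps6kl1 (chr12:86482944-86483301), was methylated at 88.3% over 78 cytosines in untreated cells, the highest of the 12 ATF4 peaks near the genes. The other 11 had between 0 and 4.54%. It ranked 5969 of 10109. It held none of the 7 motif patterns in its central 300 bases.

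Another pattern outside the comparisons above concerns the order of the genes. In untreated cells Figf, the gene for VEGF-D, had the highest FPKM of the 5 VEGF ligands, at 39.9, with a gene start methylated at 40.5%. After thapsigargin Vegfa was the highest, at 86.4, and its start was at 0.409% in untreated cells. The pairing of methylation and direction in Figf and Vegfa did not hold for Fgf7, Vegfb and Vegfc. Fgf7, with a start at 32.7%, was called higher, with a log2 change of 1.91. Vegfb and Vegfc, with starts at 0.0882% and 0.225%, were called lower. A relation between start methylation and RNA change was not tested.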
